A study of Homo sapiens with 12 samples.

Results

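A set of 65 genes was on in every K/VP.5 sample and off in every sample of the other cell lines. K/VP.5 is a clonal etoposide-resistant line that was selected from K562 human leukemia cells. Genes were chosen by their own CPM (the count divided by the total count of its library, times 1000000). A protein-coding or lncRNA gene was taken if it had at least 2 CPM in all 4 K/VP.5 samples and less than 0.2 CPM in all 4 K562 and all 4 K562/SSedit-2 samples. Of 36665 such genes in the count table, 65 met the rule, of which 56 were protein-coding and 9 were lncRNA. Because these values chose the genes, their levels in the 3 lines are given as a description, without a test.

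RNA-seq was performed on 4 samples of each line, all grown in DMEM with 10% FBS and taken in mid-log phase. K562 is the parental line, a chronic myeloid leukemia line in wide use. K/VP.5 is a drug-selected descendant of K562, obtained with etoposide, a poison of DNA topoisomerase IIα, that was given in pulses before it was kept in the medium. K562/SSedit-2 is a clone of K562 in which Cas9, sgRNA #1 and a repair template altered the 5′ splice site between exon 19 and intron 19 of TOP2A. K/VP.5 and K562/SSedit-2 are each 1 clone, so a feature of the clone and a feature of its treatment or edit cannot be told apart. Nothing in the labels says that the 4 samples of a line came from separate cultures, so that p-values measure the spread between these samples, which may be technical. In bulk RNA, fewer cells with a transcript and less RNA per cell also cannot be told apart.

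Library totals ran from 28981722 to 39944440 counts for K/VP.5, from 36883518 to 43648830 for the parental line and from 32355417 to 37619488 for the edited clone, so that 3 counts were worth 0.0687 to 0.104 CPM. TOP2A, which the edit was aimed at, ranged over 273 to 286 CPM in K/VP.5, 176 to 204 in the edited clone and 351 to 462 in the parental line. K562 replicate 1 stood apart, with a chi-square per degree of freedom of 61.3 to 65.1 over genes against the other K562 samples, where the other pairs within a line had 5.36 to 22.3. Without it the rule gave 67 genes, since leaving out a sample can only add to the set. The erythroleukemia markers GATA1, KLF1, TFRC and HBG1 were present in all 12 samples, with GATA1 at 253 CPM or more. All 19 genes of a list of K562 markers passed the filter on low counts, and 4 of them, among which were HBE1, GYPB and ALAS2, were higher in K/VP.5 than in K562 (8.98% of all genes were). Against K562/SSedit-2, 2 of the 19 were higher (9.62% of all genes), and HBE1 and ALAS2 were not called.

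A gene can be kept silent by packing of its promoter into closed chromatin, by histone marks of the Polycomb complexes or by methylation of CG dinucleotides, which cluster in CpG islands at the promoters of widely used genes. Clonal lines in long culture can differ from their parent in such states. Among genes often found silent in this way are the zinc finger genes of chromosome 19, which lie in tandem clusters, and many of which encode KRAB repressors that bind mobile elements in DNA. Regulators of development such as HAND2, a basic helix-loop-helix (bHLH) transcription factor of the heart, limb and sympathetic neurons, are normally silent in blood cells.

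Promoter sequences are shown because the letters around the start of transcription were not used to choose the genes. RefSeq promoters (GRCh38.p14) hold 250 bases before and 50 bases from the start, and 49 of the 65 genes matched an entry. The 5 shown are HAND2, LANCL3 and ZNF254, which come from 3 different kinds of location, ZNF551, whose own neighbour changed in the opposite direction, and CYBB, which lies in the same stretch as LANCL3 but is poor in CG. They lie at chr4:173530180-173530479 on the minus strand (HAND2), chrX:37571411-37571710 (LANCL3), chr19:24086937-24087236 (ZNF254), chr19:57681727-57682026 (ZNF551) and chrX:37779809-37780108 (CYBB), the last 4 on the plus strand. Each is written 5′ to 3′, with CG dinucleotides in capitals.
HAND2: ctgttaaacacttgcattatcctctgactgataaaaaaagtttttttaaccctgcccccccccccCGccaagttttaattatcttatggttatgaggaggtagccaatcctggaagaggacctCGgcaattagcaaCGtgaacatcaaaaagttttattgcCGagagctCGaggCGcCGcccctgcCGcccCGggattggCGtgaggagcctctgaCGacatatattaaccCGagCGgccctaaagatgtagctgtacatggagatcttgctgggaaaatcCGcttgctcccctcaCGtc
LANCL3: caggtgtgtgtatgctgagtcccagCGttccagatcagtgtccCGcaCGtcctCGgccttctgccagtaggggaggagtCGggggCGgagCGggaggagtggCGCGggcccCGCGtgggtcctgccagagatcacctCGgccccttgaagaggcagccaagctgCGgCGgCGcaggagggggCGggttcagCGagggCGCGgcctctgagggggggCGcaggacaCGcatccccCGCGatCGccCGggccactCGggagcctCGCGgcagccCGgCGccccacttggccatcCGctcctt
ZNF254: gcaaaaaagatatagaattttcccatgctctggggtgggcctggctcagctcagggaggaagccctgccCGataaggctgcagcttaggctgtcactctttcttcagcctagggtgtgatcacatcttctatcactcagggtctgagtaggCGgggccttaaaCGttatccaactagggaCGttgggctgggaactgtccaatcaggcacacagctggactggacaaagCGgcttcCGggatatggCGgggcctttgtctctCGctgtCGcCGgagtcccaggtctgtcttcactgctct
ZNF551: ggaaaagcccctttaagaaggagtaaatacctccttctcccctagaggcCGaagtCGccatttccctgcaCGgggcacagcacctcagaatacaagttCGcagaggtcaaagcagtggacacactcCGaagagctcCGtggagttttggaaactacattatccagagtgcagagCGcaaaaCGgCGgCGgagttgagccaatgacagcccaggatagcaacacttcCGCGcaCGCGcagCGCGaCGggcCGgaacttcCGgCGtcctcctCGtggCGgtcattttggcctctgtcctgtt
CYBB: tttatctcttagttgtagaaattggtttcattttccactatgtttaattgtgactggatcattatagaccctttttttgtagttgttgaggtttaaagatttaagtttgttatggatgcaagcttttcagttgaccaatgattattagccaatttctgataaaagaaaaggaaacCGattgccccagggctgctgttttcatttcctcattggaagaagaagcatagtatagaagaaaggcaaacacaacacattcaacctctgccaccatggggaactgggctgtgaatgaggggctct
There were 31 CG dinucleotides in the LANCL3 promoter, 22 in that of ZNF551, 15 in that of HAND2, 10 in that of ZNF254 and 1 in that of CYBB. The RefSeq start of ZNF254 lies 53782 bases downstream of the gene start in GENCODE 44, which was used for positions in the rest of the text.

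The 65 genes were almost without reads outside K/VP.5. Of their 520 values in the 8 samples of the other lines, 255 (49%) were 0 counts and 450 were 3 counts or fewer. Summed over the 65 genes, 518 to 536 CPM were found in a K/VP.5 sample, against 1.95 to 3.07 CPM in a sample of the other lines. Mean levels in K/VP.5 ran from 2.28 CPM (USP43) to 45.0 CPM (PIWIL4), with a median of 6.04 CPM. A level of more than 10 CPM was reached by 14 genes, 5 to 10 CPM by 22 and less than 5 CPM by 29. All 65 passed the filter on low counts through K/VP.5 alone, so their calls in the fits carry no information and are not counted, whereas 8.98% of the 18626 genes tested were called higher in K/VP.5 than in K562.

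**Figure D1:**
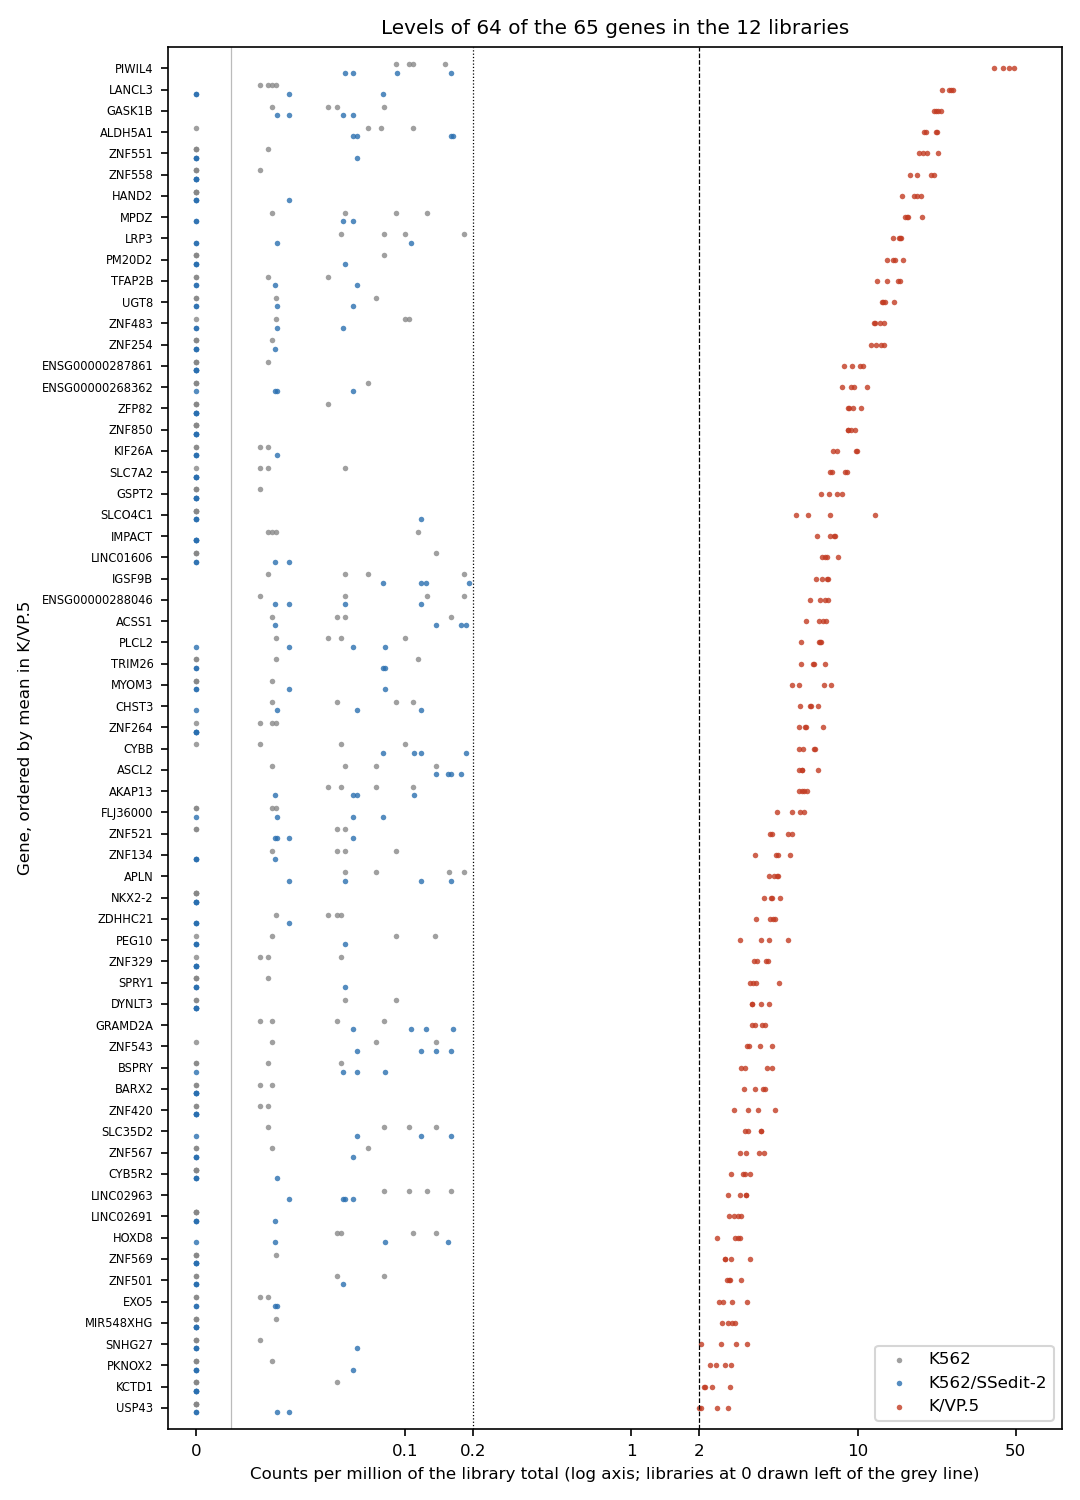
CPM (log axis) of 64 of the 65 genes in each of the 12 samples, ordered by the mean in K/VP.5 (red points, the other lines in grey and blue), with samples at 0 drawn left of the grey line. The dashed line marks 2 CPM and the dotted line 0.2 CPM, the limits that chose the genes, and the lowest summed level in K/VP.5 was 518 CPM against 3.07 CPM at most in the other lines.

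Silence in K562 was the usual state of the genes from which these were drawn. In the K562 and K562/SSedit-2 samples, 19062 coding or lncRNA genes had less than 0.2 CPM throughout, of which 18120 (95.1%) were also below 0.2 CPM in all 4 K/VP.5 samples. At least 0.5 CPM in all 4 K/VP.5 samples was reached by 164 of the 19062, at least 1 CPM by 103, at least 5 CPM by 35 and at least 10 CPM by 14. Applied to the other lines, the same limits found 0 genes on only in K562 and 0 on only in K562/SSedit-2. They found 21 genes on in K562 and K562/SSedit-2 and off in K/VP.5. No gene was on in K/VP.5 and 1 of the other lines and off in the remaining line.

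The spread among the 4 K/VP.5 samples is described for genes that the rule held at 2 CPM or more in each, without other genes to compare. The coefficient of variation had a median of 8.64% and was below 10% for 43 genes. It was smallest for GASK1B, which encodes a Golgi-associated kinase-like protein, at 2.83%, with 22.2, 21.8, 23.3 and 22.6 CPM. It exceeded 20% for 2 genes. SLCO4C1, an organic anion transporter, had 5.33, 11.9, 7.52 and 6.04 CPM, a coefficient of variation of 38.3%. PEG10, an imprinted gene derived from a retrotransposon, had 3.03, 4.95, 4.05 and 3.76 CPM, a coefficient of variation of 20.1%. In SLCO4C1 the second sample was well above the others.

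Zinc finger genes were the largest family. By their symbols, 15 of the 56 coding genes belonged to it (26.8%), against 2.85% of all coding genes in the table. Of the 170 zinc finger genes that were below 0.2 CPM in K562 and K562/SSedit-2, 15 (8.82%) were among the 65, against 0.857% of all 6532 such coding genes. On chromosome 19 alone, it was 12 of 109 (11%). These shares describe the genes chosen and were not tested.

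ZNF254, which lies at chr19:24033405-24129968, had 13.1, 12, 12.8 and 11.5 CPM in K/VP.5, 12.3 ± 0.722 CPM (mean ± SD, n = 4). In the 8 other samples it had 2 counts in all, 1 in each line. The ratio of the pooled levels was 1856, with an exact 95% interval of 513 to 15340 that covers counting error only. The rule chose the genes by these same counts, so this interval and those below describe them and test nothing. It shares its start with the lncRNA ENSG00000268362, also among the 65, on the same strand, and the split of reads between them is uncertain. ZNF551 had 22.6, 20.3, 19.5 and 18.7 CPM and 3 counts in the 8 other samples, a ratio of 2039 (697 to 9895). ZNF558, at the other end of the chromosome, had 17, 21.9, 21.0 and 18.3 CPM and 1 count in the other samples. ZNF850 had 9.09, 9.79, 9.31 and 9.04 CPM and no count in any of the 8 samples. Against 3 counts over those 8 samples it was at least 930-fold higher in K/VP.5. The zinc finger genes thus had no overlap between K/VP.5 and the other lines, which is what the rule asked for. Zinc finger genes resemble each other in sequence, and how reads that map to several places were counted is not given in the sources used here.

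Of the other zinc finger genes, ZFP82 had 9.52 ± 0.586 CPM and ZNF264 had 6.08 ± 0.665 CPM (SD, n = 4). ZNF134, ZNF329, ZNF420, ZNF543, ZNF567 and ZNF569 lay between 2.82 CPM (ZNF569) and 4.34 CPM (ZNF134). Outside chromosome 19 were ZNF483 on chromosome 9 (12.4 ± 0.6 CPM), ZNF501 on chromosome 3 (2.78 ± 0.182 CPM) and ZNF521 on chromosome 18 (4.58 ± 0.509 CPM). ZNF521 is a large transcriptional co-regulator of blood and neural progenitors, and most of the others belong to the KRAB class.

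**Figure D2:**
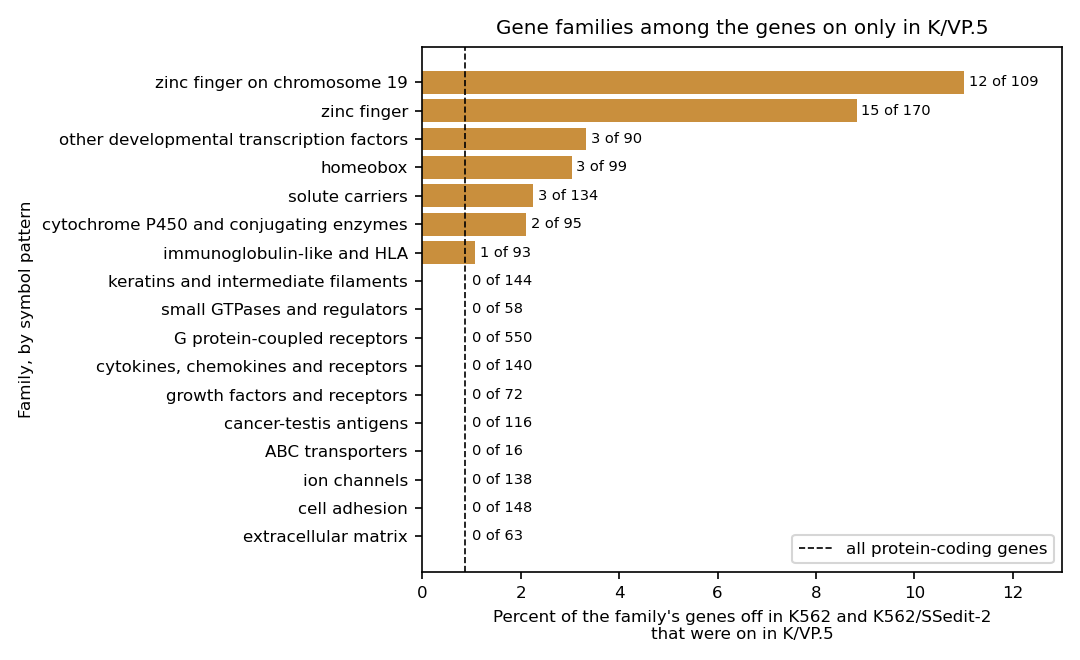
Share of the genes of each symbol family that were on in K/VP.5, among those below 0.2 CPM in all K562 and K562/SSedit-2 samples, with the counts beside the bars. The dashed line is the share over all coding genes (0.857%); zinc finger genes reached 8.82% and those on chromosome 19 reached 11%, while 10 families had 0 genes.

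Transcription factors of development formed the next group. HAND2 (chr4:173524969-173530229) had 15.7, 18.3, 17.7 and 19.0 CPM in K/VP.5, against 1 count in the 8 other samples. The ratio of pooled levels was 5260, with a lower 95% limit of 943 for counting error, on the counts that chose the gene. TFAP2B, an AP-2 factor of neural crest and kidney, had 15.1, 12.2, 13.5 and 15.4 CPM. ASCL2, a bHLH factor of trophoblast and intestinal stem cells, had 5.66, 5.5, 5.67 and 6.66 CPM. In HAND2 and TFAP2B the lowest K/VP.5 sample was still above 12 CPM.

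Homeobox genes were represented by NKX2-2, BARX2 and HOXD8. NKX2-2, a factor of the ventral neural tube and of pancreatic islets, had 3.88, 4.15, 4.17 and 4.55 CPM and no count in the other 8 samples, so that it was at least 416-fold higher against 3 counts. BARX2 had 3.59 ± 0.344 CPM and HOXD8 had 2.82 ± 0.284 CPM (SD, n = 4). PKNOX2 also encodes a homeodomain protein, although its symbol is not of the pattern used, and had 2.49 ± 0.234 CPM. By pattern, 3 of 99 homeobox genes that were off in the other lines (3.03%) and 3 of 90 other developmental factors (3.33%) were among the 65, against 0.857% of all such coding genes.

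PIWIL4, a member of the PIWI proteins that use small RNAs to silence transposons in the germline, had 49.3, 44.1, 46.6 and 40.1 CPM in K/VP.5. It had 31 counts in the 8 other samples, and the ratio was 438 (95% interval 308 to 645). FUT4 overlaps PIWIL4 on the same strand and was itself expressed in all lines. No gene of the cancer-testis family (0 of 116 off in the other lines) was among the 65, which is near the share of 0.857% over all coding genes.

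Enzymes and transporters are described next. LANCL3 (chrX:37571569-37684463), a member of the family of LanC-like proteins, had 23.7, 26.3, 25.4 and 25.7 CPM in K/VP.5 and 8 counts in the other 8 samples. The ratio of pooled levels was 945 (95% interval 479 to 2190). ALDH5A1, the mitochondrial dehydrogenase that ends the breakdown of GABA, had 22.5, 19.96, 22.2 and 19.6 CPM. UGT8, which makes galactosylceramide of myelin, had 14.4, 12.8, 13.3 and 12.9 CPM. PM20D2, a dipeptide hydrolase, had 14.6, 14.4, 15.8 and 13.5 CPM. SLC7A2, a transporter of arginine and other cationic amino acids, had 8.27 ± 0.711 CPM, and SLC35D2, a transporter of nucleotide sugars in the Golgi, had 3.49 ± 0.296 CPM. ACSS1, the mitochondrial acetyl-CoA synthetase, had 6.74 ± 0.588 CPM, and CHST3, a chondroitin sulfotransferase, had 6.15 ± 0.468 CPM. By family, 3 of 134 solute carriers (2.24%) and 2 of 95 cytochrome P450, aldehyde dehydrogenase and conjugating enzymes (2.11%) that were off in the other lines were on in K/VP.5, against 0.857% of all such coding genes, so that these are counts of few genes.

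Among membrane, scaffold and signalling proteins, MPDZ, a scaffold with many PDZ domains, had 16.5, 19.4, 16.2 and 16.8 CPM. LRP3, of the LDL receptor family, had 15.6, 14.4, 15.5 and 15.2 CPM. CYBB, the catalytic subunit of the phagocyte NADPH oxidase, had 5.51, 6.41, 6.46 and 5.76 CPM, with 24 counts in the other 8 samples. The same pattern held for KIF26A, an atypical kinesin (8.93 ± 1.12 CPM), AKAP13, an anchor of protein kinase A (5.75 ± 0.197 CPM), SPRY1, an inhibitor of receptor tyrosine kinase signalling (3.72 ± 0.518 CPM), APLN, the peptide apelin (4.29 ± 0.175 CPM), and EXO5, a DNA exonuclease (2.76 ± 0.358 CPM). GSPT2, an intronless copy of the translation release factor gene GSPT1, had 7.76 ± 0.703 CPM and 1 count in the other 8 samples, and its reads may be shared with that gene. Receptors coupled to G proteins (0 of 550), ion channels (0 of 138), cell adhesion genes (0 of 148) and cytokine genes (0 of 140) that were off in the other lines gave none of the 65, where the share over all such coding genes was 0.857%.

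Levels of different genes are comparable only per length of exon. On that scale, CPM per kb in K/VP.5 had a median of 1.07 and ran from 0.261 (KCTD1) to 12.9 (ENSG00000287861), a lncRNA of 756 exonic bases on chromosome 13. It was 10.0 for PIWIL4, 4.91 for HAND2, 4.31 for ZNF551, 3.95 for ASCL2, 2.46 for LANCL3 and 1.62 for ZNF254. The lncRNA ENSG00000287861 had 9.46, 10.3, 8.70 and 10.6 CPM, against 1 count in the other 8 samples, and it lies among pseudogenes that are copies of genes elsewhere.

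The genes were spread over 21 chromosomes, and 17 of the 65 lay within 500 kb of another. Chromosome 19 held 14 (21.5%), against 5.81% of the coding and lncRNA genes in the table and 4.46% of those that were off in the other lines. The X chromosome held 5. The groups were KIF26A with LINC02691 on chromosome 14 (152 kb), ZNF254 with ENSG00000268362 (96.6 kb), ZFP82, ZNF567, ZNF850, ZNF420 and ZNF569 on chromosome 19 (1086 kb), ZNF264, ZNF543, ZNF134, ZNF551 and ZNF329 further along that chromosome (964 kb), and LANCL3, CYBB and DYNLT3 on the X chromosome (276 kb). The remaining 48 stood alone.

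On the X chromosome, XK lies between LANCL3 and CYBB, at a distance of 1.33 kb from the end of LANCL3. XK carries the Kx antigen of red cells and was the only gene outside the 65 that was tested from LANCL3 to DYNLT3 and 100 kb on either side. It had 2.97 ± 0.278 CPM in K562, 5.21 ± 0.716 in K562/SSedit-2 and 111 ± 2.15 in K/VP.5 (SD, n = 4). XK was higher in K/VP.5 than in K562 by 5.19 ± 0.11 on the log2 scale (± SE, adjusted p = 1.96e-15 by edgeR) and than in K562/SSedit-2 by 4.37 ± 0.10 (adjusted p = 8.45e-15). The lowest K/VP.5 sample of XK was well above the highest sample of the other lines. DYNLT3, a dynein light chain, had 3.66 ± 0.320 CPM in K/VP.5. A listed gene without a count in any sample, ENSG00000250349, overlaps LANCL3, XK and CYBB on their strand. The counts of LANCL3, XK and CYBB depend on how overlapping reads were assigned.

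The stretch of chromosome 19 from ZFP82 to ZNF569 held genes that were silent in K562 and genes that were expressed. Outside the 65, 16 genes were tested in this stretch and the 100 kb on either side, of which 11 were higher in K/VP.5 than in K562 and 2 were lower, against 8.98% and 6.66% of all genes. Some of the 11, such as ZNF527, ZNF570, ZNF585A and ZNF567-DT, passed the filter through K/VP.5 alone and could only be higher. ZNF527 had 1.57 ± 0.282 CPM in K/VP.5 and no count in K562, ZNF383 went from 3.05 to 6.53 CPM, and ZNF571, which lies 85.5 kb beyond ZNF569, from 0.801 to 2.83 CPM. ZNF529 fell from 10.6 ± 1.05 to 4.26 ± 0.792 CPM (log2 fold change -1.33 ± 0.13, adjusted p = 2.58e-07 by edgeR), as did the antisense gene ZNF529-AS1 from 1.95 to 0.575 CPM. ZNF260 and ZNF566 had 13 and 8.36 CPM in K562 and 15.3 and 11.3 CPM in K/VP.5, below the fold change of 2.

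Further along, from ZNF264 to ZNF329 and again with 100 kb on either side, 32 genes outside the 65 were tested, of which 13 were higher in K/VP.5 than in K562 and 1 was lower, against the same 8.98% and 6.66%. Here too, genes such as ZNF304, ZNF548, ZNF772, ZNF419, ZNF773, ZNF550 and ZNF154 passed the filter through K/VP.5 alone and could only be higher. ZNF530, which ends 1.51 kb before ZNF134, rose from 0.308 ± 0.0931 to 10.2 ± 0.706 CPM (log2 fold change 5.00 ± 0.21, adjusted p = 9.65e-12 by edgeR), and had 1.28 ± 0.309 CPM in K562/SSedit-2. ZNF211 rose from 1.55 to 8.14 CPM, ZNF805 from 4.68 to 14.6 CPM and ZNF417 from 3.81 to 13.4 CPM. ZNF671 moved in the opposite direction. It ends 2.45 kb from ZNF551 and fell from 5.34 ± 0.582 CPM in K562 and 7.29 ± 0.0711 in K562/SSedit-2 to 0.191 ± 0.0458 in K/VP.5 (log2 fold change -4.79 ± 0.17 against K562, adjusted p = 9.84e-13). ZNF587B, ZNF552 and ZNF17 did not pass the test, with 73.3, 10.2 and 5.11 CPM in K562 and 67.2, 10.0 and 5.68 CPM in K/VP.5.

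**Figure D3:**
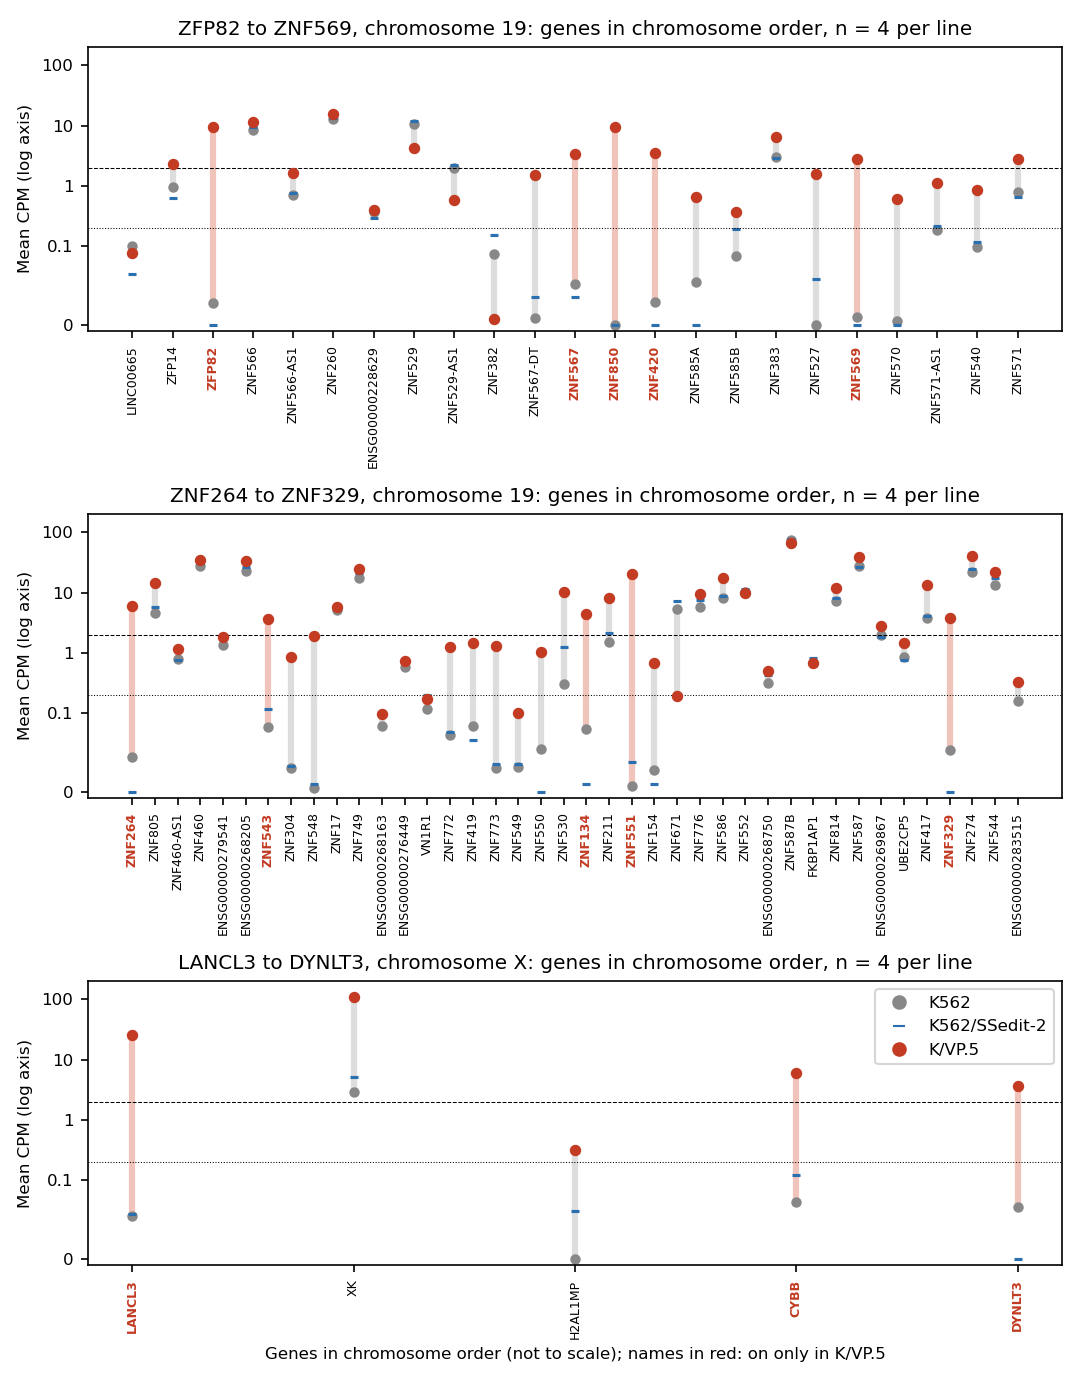
Mean CPM (log axis, n = 4 per line) of genes that reached 0.2 CPM in a sample, in chromosome order, for the stretches with 3 or more of the 65 genes (names in red) and the 100 kb on either side, with red points for K/VP.5, grey points for the parental line and blue dashes for the edited clone. The dashed line marks 2 CPM and the dotted line 0.2 CPM. ZNF671 beside ZNF551 fell from 5.34 to 0.191 CPM, and XK beside LANCL3 reached 111 CPM.

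Over all 65 genes, 412 other listed genes lay within 100 kb without overlapping, and 129 of them passed the filter. Of these, 42 (32.6%) were higher in K/VP.5 than in K562 and 4 (3.10%) were lower, at a fold change of 2 and a false discovery rate of 10% in edgeR's quasi-likelihood test. Without K562 replicate 1, 42 of 132 were higher and 5 lower. Among all 18626 genes tested, 8.98% were higher and 6.66% lower. Against K562/SSedit-2, which was compared with the same K/VP.5 samples, 42 were higher and 4 lower, beside 9.62% and 6.2% of all genes. Between K562/SSedit-2 and K562, 2 were higher and 4 lower, beside 0.805% and 1.26% of all genes, or 2.06% in either direction. The median log2 fold change of the 129 was 0.41 against K562, and 0.01 over all genes tested.

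By distance, the share of neighbours that were higher was 44.4% at up to 10 kb (8 of 18), 31.9% from 10 to 50 kb (15 of 47), 29.7% from 50 to 100 kb (19 of 64) and 12.4% from 100 to 500 kb (42 of 339). On chromosome 19 it was 55.6% (20 of 36) and on the other chromosomes 23.7% (22 of 93). Many of these neighbours were themselves low in K562 and passed the filter through K/VP.5. Among the 70 neighbours with at least 1 CPM in all 4 K562 samples, 7 (10%) were higher and 3 (4.29%) lower, beside 3.8% and 6.4% of the 12598 genes with such levels. Among the 7 were ZNF383, ZNF805, ZNF211 and ZNF586 on chromosome 19 and XK and MAGED1 elsewhere. This comparison was not split by chromosome. Of the 65 genes, 26 had a neighbour that was higher, 3 had a neighbour that was lower, 21 had tested neighbours without a call and 17 had no tested neighbour.

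**Figure D4:**
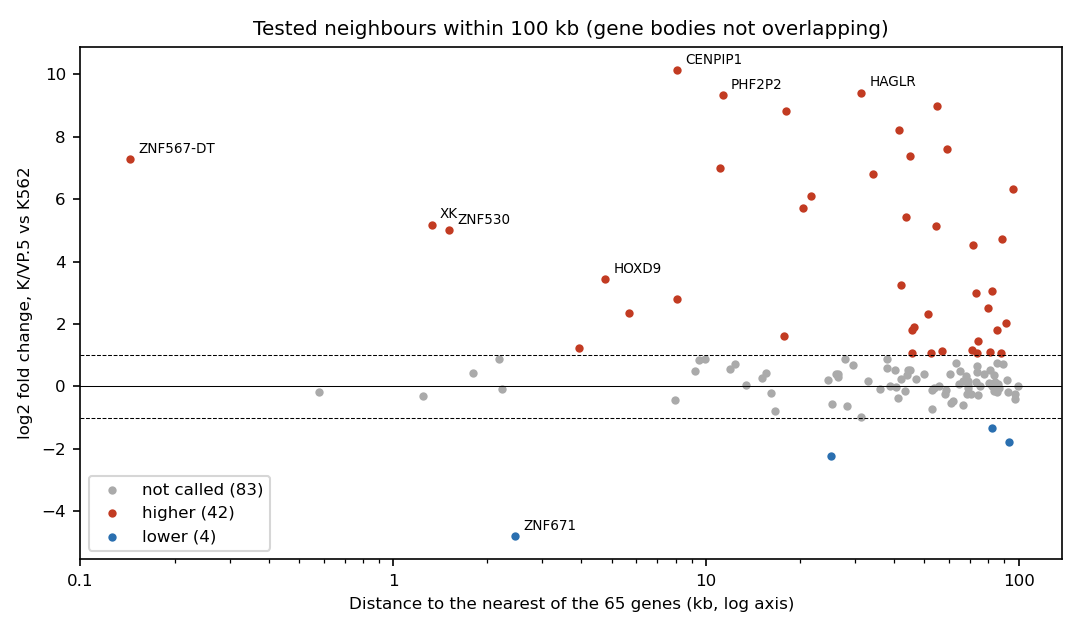
log2 fold change between K/VP.5 and K562 of the 129 tested neighbours against their distance to the nearest of the 65 genes (kb, log axis), with the fold change of 2 as dashed lines. Of these, 42 were higher, 4 lower and 83 not called, and XK, ZNF530 and ZNF671 lie within 2.45 kb.

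The 10 neighbours with the largest fold changes were nearly without counts in K562, so levels are given in place of folds. In K/VP.5, CENPIP1 had 3.90 ± 0.270 CPM, PHF2P2 10.5 ± 1.06, USP24P1 1.77 ± 0.218 and GTF2IP3 1.03 ± 0.205 CPM (SD, n = 4). These are pseudogenes within 100 kb of ENSG00000287861 on chromosome 13, and their reads may be shared with the genes they copy. HAGLR and HAGLROS, noncoding genes of the HOXD cluster near HOXD8, had 2.37 ± 0.430 and 0.571 ± 0.0416 CPM. ZNF548 had 1.92 ± 0.223 CPM, ZNF567-DT, which starts 0.144 kb from ZNF567 on the opposite strand, 1.53 ± 0.0470 CPM, and the lncRNA ENSG00000287497 0.442 ± 0.0748 CPM. With ZNF527, given above, all 10 had means below 0.03 CPM in the other lines. In the HOXD cluster, HOXD9 also rose from 0.343 ± 0.0857 to 3.85 ± 0.409 CPM (log2 fold change 3.44 ± 0.23, adjusted p = 2.57e-09 by edgeR).

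Elsewhere, IFNLR1, a receptor chain for interferon lambda that lies 42.0 kb from MYOM3, rose from 0.815 ± 0.208 to 7.85 ± 0.802 CPM (log2 fold change 3.24 ± 0.18, adjusted p = 4.30e-10 by edgeR). MAGED1, 56.8 kb from GSPT2, had 84.9 ± 3.01 CPM in K/VP.5, 37.7 ± 5.09 in the parental line and 4.41 ± 0.378 in K562/SSedit-2, so the clones differed from K562 in opposite directions. C11orf21, 25 kb from ASCL2, fell from 0.808 to 0.173 CPM (log2 fold change -2.24 ± 0.42, adjusted p = 3.18e-04). XK, ZNF530, HOXD9, IFNLR1, MAGED1 and the genes of the chromosome 19 stretches outside the 65, other than ZNF527, ZNF529, ZNF529-AS1, ZNF548, ZNF567-DT and ZNF671, were singled out after their values were seen.

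Of the 65 genes, 44 overlapped another listed gene, 26 of them on the same strand. Since the strand setting of the counting is not given in the sources used here, reads of overlapping genes may not be told apart. Among 12 overlapping genes that were tested, 11 were higher in K/VP.5 than in K562, against 8.98% of all genes, but several, such as ZNF154, ZNF570 and GASK1B-AS1, were almost without counts in K562, passed the filter through K/VP.5 alone and could only be higher. HAND2-AS1, the antisense neighbour of HAND2, went from 0.147 CPM in K562 and 0.495 in K562/SSedit-2 to 4.66 CPM in K/VP.5. FUT4, which makes fucosylated surface sugars and overlaps PIWIL4, went from 23.6 to 51.9 CPM, and GPLD1, which overlaps ALDH5A1, from 0.291 to 2.49 CPM. These overlapping genes were named after their values were seen.

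Partners and relatives of the named genes were read from lists, on genes outside the 65. Of 32 regulators and products of heart and sympathetic tissue, HAND2 included, 18 were below 0.2 CPM in all 12 samples, among them HAND1, NKX2-5, TBX5 and TH. Of 10 that were tested, 5 were higher in K/VP.5 than in K562 and 2 lower, against 8.98% and 6.66% of all genes, and those near 0 in K562, such as GATA4, could only be higher. Among the genes that rose were the zinc finger factors GATA4 (0.0242 to 1.56 CPM), GATA5 (3.94 to 10.6) and GATA6 (0.469 to 5.64) and the T-box factor TBX3 (0.170 to 11.1). GATA3 (0.789 to 0.110 CPM) and MEF2C (45.5 to 0.102 CPM) fell. Of 6 tested partners and inhibitors of bHLH factors, the inhibitors ID1 (135 to 48.5 CPM) and ID3 (53.6 to 11 CPM) fell and the dimer partners TCF3, TCF4 and TCF12 were below the fold change of 2. All 6 had an unadjusted p under 0.05.

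LANCL1 and LANCL2, the relatives of LANCL3, had 36.8 and 14.5 CPM in K562 and 37.5 and 18.9 CPM in K/VP.5. Neither of the 2 was called by edgeR, DESeq2 or voom, and 1 had an unadjusted p under 0.05. Of 10 genes of the machinery through which KRAB proteins repress, such as TRIM28 (926 and 965 CPM) and SETDB1 (57.5 and 59.3 CPM), 0 were called by edgeR, DESeq2 or voom, while 5 had an unadjusted p under 0.05. Of all genes, 8.98% were higher and 6.66% lower. Of 8 enzymes and partners of promoter methylation, DNMT3A, a de novo DNA methyltransferase, rose from 64.6 to 173 CPM and the others were not called. Of 11 genes of the Polycomb repressive complex, SUZ12 fell from 107 to 53.7 CPM, and the others were not called. These counts of 1 gene are near the shares over all genes. The log2 fold change of SUZ12 was -1.03 and its call was lost without K562 replicate 1 (-0.98) or K/VP.5 replicate 4. Of 12 tested immediate early genes and phosphatases induced by MAPK signalling, the pathway that SPRY1 dampens, 0 were called by edgeR, DESeq2 or voom, and 4 had an unadjusted p under 0.05.

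Genes of the same families were also counted outside the 65. Of 88 homeobox genes outside the 65 that were tested, 34 (38.6%) were higher in K/VP.5 than in K562 and 3 (3.41%) lower, and the median log2 fold change was 0.33. Of 410 zinc finger genes, 54 (13.2%) were higher and 22 (5.37%) lower, and of the 165 on chromosome 19, 33 (20%) were higher and 11 (6.67%) lower. Of 131 other developmental transcription factors, 32 (24.4%) were higher and 15 (11.5%) lower, and of 241 solute carriers 27 (11.2%) and 18 (7.47%). High shares were not particular to these families: of families with none of the 65, 32.5% of 77 extracellular matrix genes, 26.4% of 106 ion channel genes and 25.9% of 116 cell adhesion genes were higher. Of 16 tested zinc finger genes around ZNF254 on the short arm, ZNF66 (0.0115 to 0.638 CPM), ZNF91 (0.0261 to 1.38) and ZNF726 (0.0125 to 0.434) rose, while ZNF714 (42.6 to 1.23), ZNF493 (6.18 to 1.95) and ZNF724 (1.48 to 0.530) fell. Against K562/SSedit-2, 4 of the 16 were higher and 2 lower, and ZNF724 was higher there, with 0.0147 CPM in the edited clone. Genes of these families that passed the filter through K/VP.5 alone had to be higher, and these shares are read beside the 8.98% and 6.66% of all genes. Among 6 tested genes of the germline list, TEX14 rose (0.183 to 0.423 CPM) and PIWIL2, a relative of PIWIL4, fell (0.330 to 0.111 CPM). The call of TEX14 was lost without K/VP.5 replicate 2 (log2 fold change 0.99, against 1.19 with all samples).

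Markers of other cell types were read because a gene on in 1 line could come from other cells, and the counts of called genes stand beside 8.98% of all genes higher and 6.66% lower. Of 12 fibroblast markers, 6 were tested, COL1A1 (2.58 to 22.9 CPM) and COL1A2 (4.63 to 31.3 CPM) rose, and COL3A1 fell (1.03 to 0.135 CPM). The summed level of this list was 48.9 to 61.9 CPM in K/VP.5, 7.32 to 17.5 in the parental line and 6.47 to 11.6 in K562/SSedit-2, while FAP was at 0 and PDGFRA, LUM and DCN were at 0.136 CPM or less on average in K/VP.5. Epithelial markers summed to 1128 to 1347 CPM in K/VP.5, 787 to 1100 in the parental line and 878 to 1163 in K562/SSedit-2. These sums came from KRT8, KRT19, KRT18 and EPCAM, which all lines expressed. Against K562, 2 of 8 tested genes (CDH1 and ELF3) were higher, with KRT14 at 0. Against K562/SSedit-2, 1 of the 8 was higher, beside 9.62% of all genes. Neural markers summed to 14.3 to 18.2 CPM in K/VP.5, 16.9 to 19.6 in the parental line and 34.2 to 39.8 in K562/SSedit-2, with STMN2 and SNAP25 at 0. Of 5 tested, SYT1 was lower than in K562, a call lost without K/VP.5 replicate 2 (log2 fold change -0.95, against -1.18). Against K562/SSedit-2, 2 of the 5 were lower, beside 6.2% of all genes. Endothelial markers summed to 3.78 to 4.38 CPM in K/VP.5, 22.1 to 36.3 in the parental line and 35.3 to 44.8 in K562/SSedit-2. Of 3 tested, PECAM1 was lower than in K562, with CDH5 at 0. Lymphoid markers summed to 19.3 to 25.7 CPM in K/VP.5 against 36.0 to 64.0 in the parental line, with CD3D of 4 tested lower and CD2 and MS4A1 at 0, and myeloid markers to 17.5 to 22.7 against 14.3 to 20.2 CPM, with ITGAM of 4 tested higher, LYZ lower, and MPO and S100A8 at 0 in K/VP.5. Whether other cells had a part in the levels of the 65 genes was not tested.

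The promoters of the coding genes among the 65 were rich in CG. For this, windows of the same 300 bases were read at the GENCODE start of every gene, since all 56 coding genes then have one. Of the 56, 45 (80.4%) were like a CpG island, with an observed to expected CG ratio of at least 0.6 and a GC share of at least 50%. This held for 29.7% of the 6004 coding genes below 0.2 CPM in all 12 samples and for 73.1% of the 10270 coding genes at 1 CPM or more in all 12. The median number of CG dinucleotides was 24 in the 56, 7 in the genes that stayed silent and 24 in the genes expressed throughout. Among the 15 zinc finger genes, 14 (93.3%) were island-like. This held for 58.3% of 127 zinc finger genes silent in all 12 samples and 71.5% of 333 at 1 CPM or more in all 12. Among the other 41 coding genes 31 (75.6%) were island-like. Of the 9 lncRNA, 4 (44.4%) were island-like, against 13.1% of the lncRNA silent in all 12 samples. CG content was not used to choose the genes, and it varies with how widely a gene is used in other tissues, which was not measured here.

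**Figure D5:**
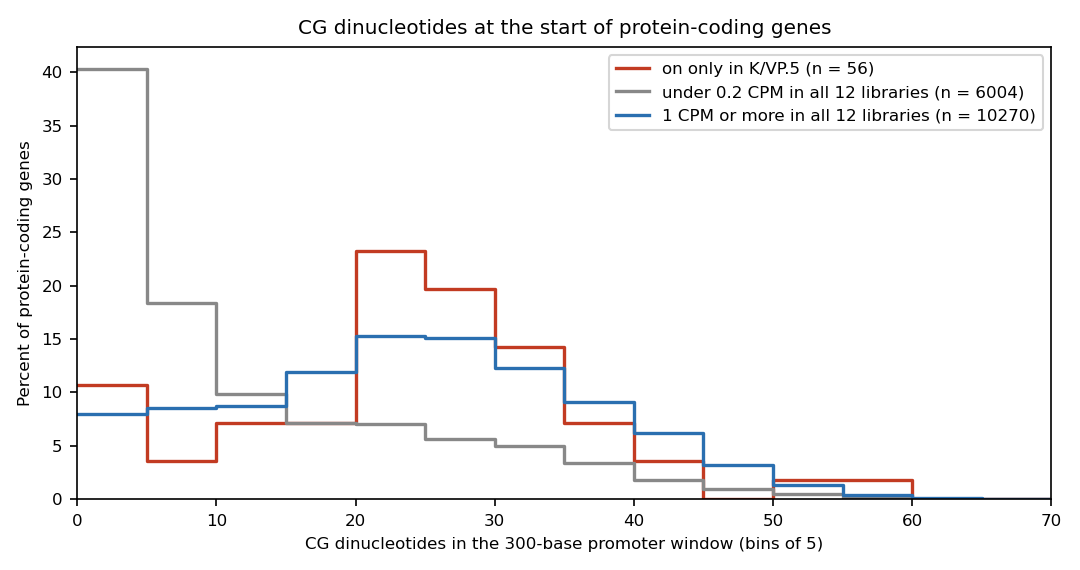
Distribution of the number of CG dinucleotides in the 300-base window at the start of coding genes, in bins of 5, for the 56 genes on only in K/VP.5, 6004 genes below 0.2 CPM in all 12 samples and 10270 genes at 1 CPM or more in all 12. The medians were 24, 7 and 24.

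Short motifs were searched on both strands of these windows. GGGCGG, a core of GC boxes, was present in 35 of the 56 (62.5%), against 52.5% of all coding genes, and TATAAA in 5 (8.93%), against 10.8%. CCAAT was present in 17 (30.4%, against 36.0%), CAGCTG in 10 (17.9%, against 16.9%) and CACGTG in 2 (3.57%, against 8.37%), the last 2 being E-boxes that read alike on both strands. AGATAA was found in 7 (12.5%, against 8.70%) and TGATAA in 2 (3.57%, against 6.21%), which are forms of the GATA motif that share their last letters. A match describes the letters of a window, not a site in use.

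Genes close to the limits show where the set ends. The lowest K/VP.5 sample had 2.00 CPM for USP43, 2.03 for SNHG27 and 2.09 for KCTD1, just inside, and 1.98 for ENSG00000231358, 1.90 for HAGLR and 1.79 for ZC4H2, just outside. The highest sample of the other lines had 0.191 CPM for IGSF9B and 0.185 for ACSS1 and for CYBB, just inside. It had 0.206 CPM for PLS3, MEIS1 and PAPSS2, just outside, whose lowest K/VP.5 samples had 12.3, 2.997 and 16.6 CPM.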

How the data were processed

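RNA-seq data of 12 samples were used, 4 of each line. The authors mapped paired-end reads to GRCh38 with HISAT2 and deposited whole-number counts per Ensembl gene from featureCounts, without normalization. Annotation release, strandedness and treatment of multiply mapped reads are not given in the sources used here. Symbols, types and positions came from GENCODE 44, in which 60401 of the 60671 gene IDs were found. The count table has no column outside the 12 samples.

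CPM was the count divided by the library total. The filterByExpr step (minimum count 10) retained 18626 genes, and all 12 samples were fitted by line with TMM factors and the quasi-likelihood test of edgeR 4.0.16 in R 4.3.3, with Benjamini-Hochberg adjustment. Calls required a fold change of 2 at 10% false discovery rate. Alternatives included DESeq2 1.42.0 and limma 3.58.1. Standard errors were obtained from the fold change (log2) and the F statistic. The fit was tested on simulated counts. Figures were drawn with matplotlib 3.10.9. Intervals and lower bounds cover counting error only, on the counts that chose the genes, and are not tests.

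The genes, lists and tests were chosen with earlier results of these data known. Named genes were HAND2, ZNF254 and LANCL3, the 25 genes of highest CPM, those within 500 kb of another or in a fixed list or a family with at least 2, the 3 nearest to each limit, the 10 neighbours of largest fold change in each direction and list genes that were called. Others were named after their values were seen, and a few genes that the rule names are not reported here. Replicate numbers in the labels are shared by the lines. Samples with the same number deviated together from their line means in all 4 pairs of K562/SSedit-2 and K562 (correlation of at least 0.135), whereas the lowest correlation was -0.00265 and -0.0947 for K/VP.5 with K562 and with K562/SSedit-2, so the numbers were not taken to pair K/VP.5 samples. By a chi-square test of their counts, no replicates were duplicates of each other.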

Additional observations from a re-analysis of the deposited data

Results flagged for a closer look

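Among the 65 genes, 3 had a K/VP.5 sample that stood apart from the other 3. PLCL2, a phospholipase C-like protein, had 5.61 CPM in the lowest sample against 6.76 to 6.88 CPM in the others. ZNF501 had 3.05 CPM in the highest sample against 2.66 to 2.72 CPM. ASCL2 had 6.66 CPM in the highest sample against 5.5 to 5.67 CPM. Chance marks about 1 in 20 such groups, and 3 of 65 is within that share.

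Outside the coding and lncRNA genes, 8 genes of other types passed the same limits in all 12 samples. By mean CPM in K/VP.5 these were DUX4L27 (17.4), PHF2P2 (10.5), VENTXP1 (5.64), CENPIP1 (3.90), PSPHP1 (3.27), SOWAHCP5 (2.66), PMPCAP1 (2.24) and the unnamed ENSG00000279692 (2.59). All but the last are pseudogenes, so that their reads may be shared with the genes they copy. None exceeded 0.160 CPM in a sample of the other lines.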

How the results depend on the processing

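The set of 65 genes moved with its limits: 103 genes at 1 CPM or more in K/VP.5, 35 at 5 CPM or more, 42 below 0.1 CPM in the other lines and 109 below 0.5 CPM. With TMM-scaled totals it held 63, and without 1 replicate 65 to 71, the latter without K562 replicate 2, where leaving out a sample can by construction only add genes. The number of neighbours higher in K/VP.5 than in K562 was 42 of 129, beside 8.98% of all genes, and 41 to 45 without 1 replicate. With no filter it was 67 of 312 (21.5%), beside 5.84% of all genes. With no fold change cutoff it was 70 of 129 (54.3%), beside 26.2% of all genes. Within 50 kb it was 23 of 65 and within 500 kb 84 of 468, both beside 8.98%. Chosen after seeing the data, the number was 7 of 70 for neighbours at 1 CPM or more in all 4 K562 samples, beside 3.8% of such genes. Off chromosome 19, also chosen after seeing the data, it was 22 of 93, beside 8.98% of all genes.

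With no fold change cutoff, the calls over all genes rose to 9747 (K/VP.5 against K562), 10055 (K/VP.5 against K562/SSedit-2) and 2356 (K562/SSedit-2 against K562), from 2914, 2945 and 384. Without 1 replicate they were 2975 to 3123, 3018 to 3135 and 330 to 466. Fitted with a replicate block, calls numbered 2924, 2965 and 398 and the neighbours that were higher stayed at 42. Of 2068 refits of 74 named genes, 2055 kept the direction and the call, 7 lost the call, 6 gained it and 0 reversed. SUZ12 lost its call without K562 replicate 1 or K/VP.5 replicate 4, TEX14 and SYT1 without K/VP.5 replicate 2, and COL3A1, against K562/SSedit-2, with limma voom (-1.16), without K/VP.5 replicate 1 (-1.33) and without K562/SSedit-2 replicate 1 (-0.69). A count of 0 to 3 in a sample limits what can be said about levels below 0.0687 to 0.104 CPM.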
